A study of Mus musculus with 6 samples.

Results

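The Ikaros family of zinc finger transcription factors, Ikzf1 to Ikzf5, was read out in mouse DN4 thymocytes sorted without and with GFP from a Gata3 reporter. Its members were taken by gene symbol from the deposited table of 6 libraries, which gave 5 genes of 41386. DN4 cells are the last thymocytes that carry neither CD4 nor CD8 at their surface, and they have passed the checkpoint for a T cell receptor beta chain. Both groups came from adult C57BL/6 mice of genotype Gata3(g/+), where g is the reporter allele. The GFP-negative group (titled white) and the GFP-positive group (titled green) had 3 libraries each, made from total RNA after ribosomal RNA depletion. Since the controls carry the reporter allele as well, the comparison is between cells of the same genotype that differ in GFP. Nothing in the labels ties the libraries to separate animals, and p-values therefore cover only how much these libraries vary, which may be technical.

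Ikaros factors bind DNA with a row of C2H2 zinc fingers near the start of the protein and pair with each other through a second set of fingers at its end, so that family members form mixed complexes. Ikaros (Ikzf1) is required for lymphocyte development and restrains Notch target genes and growth in thymocytes, in large part with the NuRD chromatin remodelling complex. Aiolos (Ikzf3) appears in committed lymphoid cells and becomes more abundant as thymocytes reach the double-positive stage. Helios (Ikzf2) is known from early progenitors, regulatory T cells and innate-like T cells, Eos (Ikzf4) from regulatory T cells, and Pegasus (Ikzf5) is the most divergent and broadly expressed member.

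The fingers themselves show how the 5 genes relate and how far reads could be confused between them. A search of the coding sequence of the principal transcript of each gene (GENCODE M21, build mm10) for the codon pattern of a C2H2 finger found 6 fingers in Ikzf1, 6 in Ikzf2, 6 in Ikzf4, 5 in Ikzf3 and 5 in Ikzf5. In each gene 2 of them lay towards the end of the coding sequence. The pattern asks for cysteine and histidine codons at set spacings, so a finger that departs from it was not counted. The second finger is shown because it lies in the DNA-binding row, written 5′ to 3′ on the coding strand with the cysteine and histidine codons that hold the zinc in capitals.
Ikzf1: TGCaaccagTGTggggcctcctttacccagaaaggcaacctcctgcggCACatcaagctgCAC
Ikzf3: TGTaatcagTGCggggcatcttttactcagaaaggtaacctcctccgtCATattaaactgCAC
Ikzf2: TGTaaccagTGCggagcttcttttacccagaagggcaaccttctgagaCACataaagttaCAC
Ikzf4: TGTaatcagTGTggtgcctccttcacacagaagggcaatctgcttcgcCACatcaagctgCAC
Ikzf5: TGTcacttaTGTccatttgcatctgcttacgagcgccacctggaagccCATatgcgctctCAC
Of its 63 bases, Ikzf1 shared 51 with Ikzf3, 51 with Ikzf2 and 53 with Ikzf4, and 26 with Ikzf5. Fingers were matched by their order in each gene. In this row 4 were found in Ikzf1, and 3 each in Ikzf3 and Ikzf5. The second fingers of Ikzf1 and Ikzf3 both lie at codons 147 to 167. That of Ikzf5 lies at codons 112 to 132 and need not be a counterpart of the others. The last finger, of the pairing set, is shown because it sets the 5 genes side by side at the part through which they join.
Ikzf1: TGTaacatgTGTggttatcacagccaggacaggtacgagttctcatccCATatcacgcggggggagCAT
Ikzf3: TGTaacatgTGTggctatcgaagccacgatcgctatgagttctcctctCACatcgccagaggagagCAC
Ikzf2: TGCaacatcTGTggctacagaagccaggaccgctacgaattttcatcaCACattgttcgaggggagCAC
Ikzf4: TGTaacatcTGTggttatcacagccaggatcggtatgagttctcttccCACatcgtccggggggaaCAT
Ikzf5: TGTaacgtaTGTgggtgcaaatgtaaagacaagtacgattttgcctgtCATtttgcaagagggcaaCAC
Here Ikzf1 shared 52 of 69 bases with Ikzf3, 50 with Ikzf2, 59 with Ikzf4 and 42 with Ikzf5. Ikzf5 was thus closer to Ikzf1 in the last finger than in the second finger as matched by order. Over the whole coding sequences the longest run of identical bases between any pair was 26, between Ikzf1 and Ikzf3.

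Expression was given as FPKM, a fragment number corrected for the length of the gene and the size of the library, which allows levels of different genes to be set side by side. Gata3 checked the sort, at 22.5 ± 1.77 FPKM without GFP and 63.3 ± 0.801 FPKM with it (SD, n = 3 each). The libraries listed 10793 to 11632 genes at 1 FPKM or more. Total reads per library were not analysed here. The commonest ratio between low values put the libraries at 0.856 to 1.27 times the depth of GFP-negative library 1, but at most 8.06% of low genes lay at that ratio, so the depth is unknown. Against the DN4 label, markers of the double-positive stage were present in GFP-negative cells. All 6 passed the test as lower in GFP-positive cells, and their summed level ran from 1153 to 1742 FPKM without GFP and from 198 to 231 FPKM with it. The general thymocyte list had 1 gene higher and 3 lower of 6, with sums of 1498 to 1797 and 1249 to 1277 FPKM. Of the gamma-delta T cell markers, 5 of the 6 listed reached a mean of 1 FPKM, the level tested, and each of these passed as higher. The summed levels were 22.8 to 62.1 and 187 to 217 FPKM. Sox13 and Cd163l1 had means of 0.801 and 0.368 FPKM without GFP and reached the level tested through the GFP-positive libraries. Of all 11465 tested genes, 24.4% passed as higher and 29.8% as lower. The markers of the earlier DN2 and DN3 stages were low, at 7.99 to 12.5 and 8.58 to 16.7 FPKM summed over 5 genes, and Hes1 alone of them passed, as higher. Hes1 was at most 0.735 FPKM in a library without GFP and reached the level tested through the GFP-positive libraries. B cell markers summed to 7.45 to 9.76 and 2.31 to 3.72 FPKM over 7 genes, with Pax5 listed at 0 in each library, and regulatory T cell markers to 11.1 to 13.2 and 9.82 to 11.7 FPKM over 5 genes. The sums were 16.3 to 38.7 and 96.1 to 104.5 FPKM for the NK and innate list. Gzma made up most of these sums, at 23.6 ± 12.0 and 98.5 ± 3.07 FPKM (SD, n = 3 each). It alone of that list reached the level tested, and it passed as higher. Prf1 went the other way, at 0.918 ± 0.265 and 0.0714 ± 0.0766 FPKM. Klrb1c and Klrd1 were above 1 FPKM in GFP-positive library 1 only (1.81 and 2.60 FPKM). The myeloid, erythroid and thymic epithelial lists summed to at most 5.55 FPKM in a library.

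Ikzf3 fell in GFP-positive cells to a mean 0.473 times that of GFP-negative cells, Ikzf5 fell by less, and Ikzf1 and Ikzf2 did not pass the test. Ikzf4 was below the level at which genes were tested. Of the 4 members tested, 0 rose and 2 fell, where 24.4% of all 11465 tested genes passed as higher and 29.8% as lower in the same fit (limma, adjusted p under 0.05). With 54.2% of all genes called in either direction, the members' count lay near that of genes in general. In bulk RNA, a smaller share of cells that express a gene and less of its RNA per cell cannot be told apart.

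**Figure D1:**
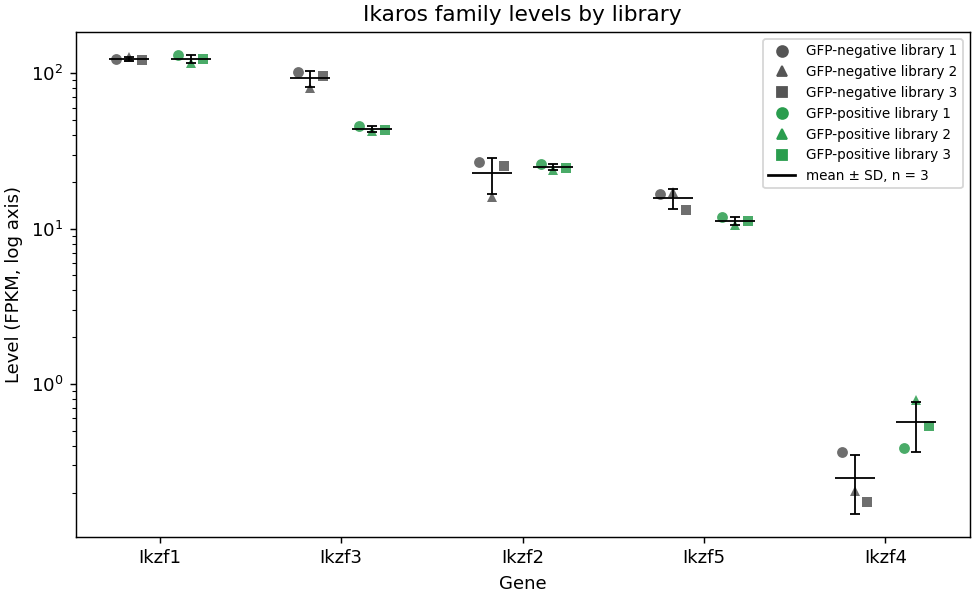
Levels of the 5 Ikaros family genes in FPKM on a log axis, by gene. Each marker is a library, grey for GFP-negative and green for GFP-positive cells, with the marker shape giving the library number, and black lines are the mean ± SD of 3 libraries. The groups lie apart for Ikzf3 (80.4 to 102 against 42.4 to 46.1 FPKM) and on top of each other for Ikzf1.

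Ikzf1, the founding member, was the most abundant of the family in each library. It lies on chromosome 11, positions 11685003 to 11772926 of mm10, on the plus strand. Libraries 1 to 3 without GFP had 123, 128 and 121 FPKM, and libraries 1 to 3 with GFP had 131, 116 and 124 FPKM. The GFP-positive libraries held both the highest and the lowest value, so the groups overlapped completely. The group means were 124 ± 3.54 and 124 ± 7.39 FPKM (SD, n = 3 each), above those of 97.0% and 96.7% of tested genes. The difference was -0.0089 (standard error 0.11, limma adjusted p = 0.952) on the log2(FPKM + 0.5) scale used throughout. Its 95% interval ran from 0.84-fold to 1.18-fold. The gene values sum all isoforms, including short Ikaros forms that lack DNA-binding fingers.

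Ikzf3 showed the largest log2 fold change of the 4 tested members and was the second most abundant member. It occupies positions 98464902 to 98546031 of chromosome 11, minus strand. Libraries 1 to 3 read 102, 80.4 and 95.6 FPKM without GFP and 46.1, 42.4 and 43.2 FPKM with GFP. Each GFP-positive library lay well below the lowest GFP-negative library, and the GFP-positive values were close together. The means were 92.8 ± 11.2 and 43.9 ± 1.94 FPKM (SD, n = 3 each), a 2.11-fold lower level. This was a log2 fold change of -1.07 (standard error 0.12; adjusted p = 0.000219 in limma), and the 95% interval ran from 0.395-fold to 0.579-fold. Of all tested genes, 12.9% had a lower log2 fold change, and groups that did not overlap were found in 63.8%, in 35.1% with the lower values in GFP-positive cells. For Ikzf3 the q was 0.00019 in the authors' deposited table of 6 libraries. It was 0.00034 in the authors' deposited table of 4 libraries, without library 1 of either group. At a q under 0.05, the authors' deposited table of 6 libraries held 49.3% of the 11616 genes tested there.

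Double-positive markers moved with Ikzf3, in the summed levels given above, and their part in its difference was not tested. Cd4 of that list, the coreceptor of helper T cells, was 242, 256 and 190.1 FPKM in libraries 1 to 3 without GFP. B cells also express Aiolos. Their marker Cd79b, part of the B cell receptor, was at 7.83 ± 1.38 FPKM without GFP and 2.66 ± 0.70 FPKM with it (SD, n = 3 each), while Pax5, the factor that defines B cells, was listed at 0. The part of B cells was not tested.

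Ikzf2, encoding Helios, did not differ beyond its spread. The gene occupies positions 69531214 to 69687245 of chromosome 1, minus strand. Without GFP, libraries 1 to 3 stood at 26.9, 15.98 and 25.5 FPKM, and with GFP at 26.0, 23.9 and 24.6 FPKM. GFP-negative library 2 was low, and the other GFP-negative libraries were at the level of GFP-positive cells. The means were 22.8 ± 5.94 and 24.8 ± 1.10 FPKM (SD, n = 3 each), or 0.15 on the log2 scale (standard error 0.19, limma adjusted p = 0.506), a value that was -0.077 once GFP-negative library 2 was left out (adjusted p = 0.618). The 95% interval, from 0.829-fold to 1.49-fold, was the widest of the 4 tested members.

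Ikzf5, encoding Pegasus, was modestly lower in GFP-positive cells. It occupies positions 131388652 to 131410521 of chromosome 7, minus strand. Libraries 1 to 3 without GFP had 16.7, 17.3 and 13.1 FPKM, and those with GFP 11.9, 10.6 and 11.1 FPKM. The groups did not overlap, with GFP-negative library 3 nearest to the GFP-positive libraries. The means were 15.7 ± 2.28 and 11.2 ± 0.626 FPKM (SD, n = 3 each), a 1.40-fold lower level, or -0.46 as a log2 fold change (standard error 0.14; adjusted p = 0.0205 in limma). It had a q of 0.317 in the authors' deposited table of 6 libraries and of 0.625 in the authors' deposited table of 4, so neither called it. The call was lost in 7 of 17 alternative fits at log2 fold changes of -0.38 to -0.46 (adjusted p up to 0.0928). Those were quantile normalization, both fits without library 1 of each group, and the fits without GFP-negative library 1 or 2 or GFP-positive library 2 or 3.

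Reads of Ikzf5 are hard to set apart from those of a neighbour. Its exons overlap those of Pstk, which encodes a kinase of selenocysteine tRNA synthesis, on the opposite strand over 4652 of 5721 exonic bases in GENCODE M21, and those of Gm44624, also opposite, over 183. The sources used here do not give whether counting used the strand. Without it, reads that lie in the shared bases cannot be told apart by position. Pstk moved the other way, with 4.04, 4.03 and 5.24 FPKM in libraries 1 to 3 without GFP and 7.16, 6.33 and 7.91 FPKM in those with GFP. The GFP-positive libraries were all above the GFP-negative ones (log2 fold change 0.63, SE 0.16, limma adjusted p = 0.0105). The exons of Ikzf1 and Ikzf3 overlapped those of no other annotated gene, those of Ikzf2 a stretch of 144 bases of an antisense gene, Gm29114, and those of Ikzf4 a stretch of 37 bases of Gm26876. Gm12000, an antisense transcript in the Ikzf1 locus with no shared exon bases, was 8.93 ± 2.65 FPKM without GFP and 4.63 ± 0.768 FPKM with it (SD, n = 3 each), and passed as lower (log2 fold change -0.85, SE 0.22, limma adjusted p = 0.0107). The overlapping genes were looked up after the members' values were known.

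Ikzf4, encoding Eos, was barely detected. It occupies positions 128630843 to 128645991 of chromosome 10, minus strand. Libraries 1 to 3 without GFP were listed at 0.362, 0.204 and 0.175 FPKM and those with GFP at 0.385, 0.784 and 0.537 FPKM. The groups did not overlap, but GFP-negative library 1 and GFP-positive library 1 were almost level. The ratio of the means was 2.30. It did not reach the mean of 1 FPKM required for a test, and the authors did not test it either. With no minimum level its log2 fold change was 0.51 (SE 0.23, limma adjusted p = 0.139). Foxp3, the factor that defines regulatory T cells, in which Eos is best known, was below 0.4 FPKM in each library. Of the other regulatory T cell markers, Ctla4 rose from 1.69 ± 0.455 to 4.96 ± 0.365 FPKM and Tnfrsf18 fell from 6.13 ± 1.07 to 2.08 ± 0.434 FPKM (SD, n = 3 each), and Il2ra and Tnfrsf4 did not pass. Their part in the values of Ikzf4 was not tested.

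**Figure D2:**
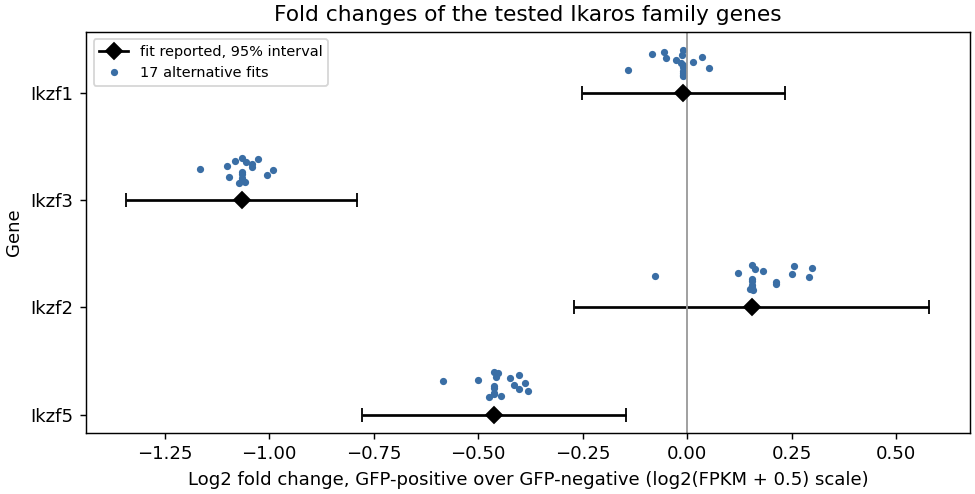
Log2 fold change of GFP-positive over GFP-negative cells for the 4 tested members on the log2(FPKM + 0.5) scale. Diamonds with bars are the reported fit and its 95% interval, and blue points, spread vertically for legibility, are 17 alternative fits. All points of Ikzf3 lie between -1.16 and -0.99 and those of Ikzf5 between -0.58 and -0.38, while those of Ikzf1 and Ikzf2 lie on both sides of 0.

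The order of levels was the same in both groups apart from its middle. Ikzf1 was above Ikzf3 in 6 of 6 libraries, Ikzf3 above Ikzf2 in 6 of 6, and Ikzf2 above Ikzf5 in 5 of 6. The exception was GFP-negative library 2, in which Ikzf5 was above Ikzf2. Ikzf2 and Ikzf5 were thus the neighbours that did not separate beyond their spread in GFP-negative cells, where their ranges overlapped, and Ikzf4 was last in each library.

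The members' shares in the family's RNA were set side by side within each library. The ratio of Ikzf1 to Ikzf3 was 1.20, 1.59 and 1.27 in libraries 1 to 3 without GFP and 2.84, 2.74 and 2.87 in those with GFP (two-sided exact permutation p = 0.10). Such a ratio within a library does not depend on how libraries were scaled to each other, and each GFP-positive library lay above each GFP-negative library. As a share of the summed FPKM of the 5 genes, Ikzf3 made up 36.2% ± 2.59 in GFP-negative and 21.5% ± 0.339 in GFP-positive libraries (SD, n = 3 each). Ikzf1 made up 48.7% ± 3.77 and 60.6% ± 0.565, and Ikzf2 8.85% ± 1.95 and 12.2% ± 0.138. For each of these 3 shares the groups did not overlap, with p = 0.10 by a two-sided exact permutation test, the lowest value open to 3 against 3 (0.125 after Benjamini-Hochberg adjustment over 5 shares). The share of Ikzf5 was 6.16% ± 1.02 and 5.49% ± 0.0191 (exact permutation p = 0.40; 0.40 adjusted). Ikzf4 held less than 0.5% in each library (exact permutation p = 0.10; 0.125 adjusted). Shares add up to the whole, so a lower share of Ikzf3 raises the others.

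**Figure D3:**
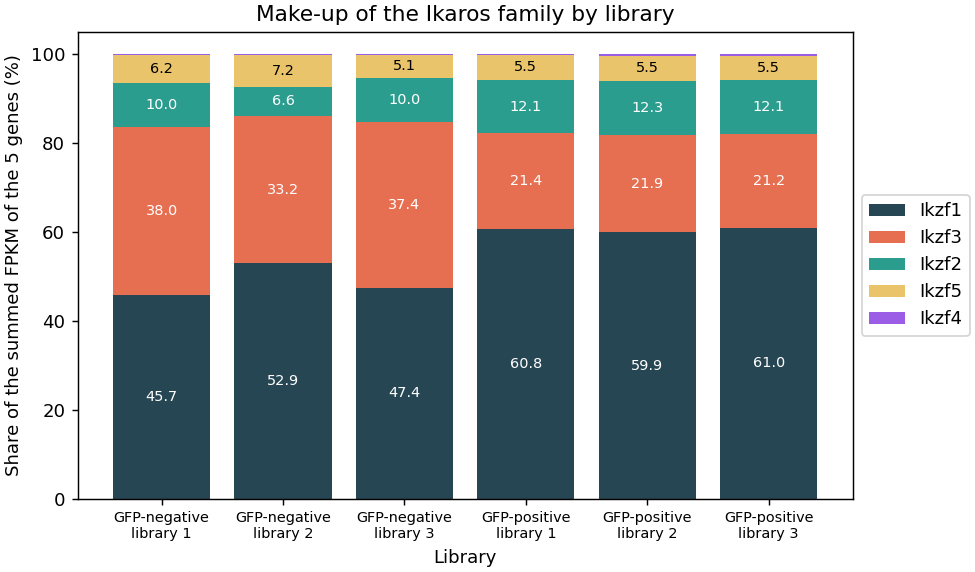
Share of each member in the summed FPKM of the 5 Ikaros family genes, in percent, by library. Segments are coloured by gene and labelled with their share where it is above 4%. The Ikzf3 segment is 33.2% to 38.0% in the GFP-negative and 21.2% to 21.9% in the GFP-positive libraries.

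The summed level of the family was 269.6, 242 and 255.5 FPKM in libraries 1 to 3 without GFP and 215, 193.6 and 203 FPKM in those with GFP. Each GFP-positive library was below each GFP-negative library (two-sided exact permutation p = 0.10, the smallest possible, n = 3 each). The ratio of Ikzf3 to Ikzf2 was 4.20 ± 0.724 without GFP and 1.77 ± 0.00933 with it, varying little among GFP-positive libraries (SD, n = 3 each; exact permutation p = 0.10).

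For each tested member, the genes with the most similar profile over the 6 libraries were listed by the root mean square difference of log2(FPKM + 0.5) after each gene's mean was subtracted. Ikzf3 was closest to Foxp1, a forkhead transcription factor of lymphocytes, with a difference of 0.0421. Foxp1 stood at 85.3, 65.6 and 74.8 FPKM in libraries 1 to 3 without GFP and at 37.8, 35.5 and 37.2 FPKM in those with GFP, with its low GFP-negative library the same as that of Ikzf3. Baz2b, a bromodomain protein (difference 0.0451), and Ralgapb, a subunit of a Ral GTPase-activating complex (0.0537), came next. The nearest to Ikzf1 were Pdha1, a subunit of pyruvate dehydrogenase (0.0328), Ogfr, the opioid growth factor receptor (0.0339), and Clint1, an adaptor of clathrin-coated vesicles (0.0382), all without a call. Ikzf2 was nearest to Usp49, a deubiquitinase (0.0476), Tacc2, a centrosome-associated protein (0.0811), and Huwe1, a ubiquitin ligase (0.105), which shared the low GFP-negative library 2. Ikzf5 was nearest to Slc25a45, a mitochondrial carrier (0.0472), Tmem43, a nuclear envelope protein (0.0544), and Cmip (0.0620). With 6 libraries in 2 groups, these profiles mostly restate the group difference and the deviation of single libraries, and they are a description.

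**Figure D4:**
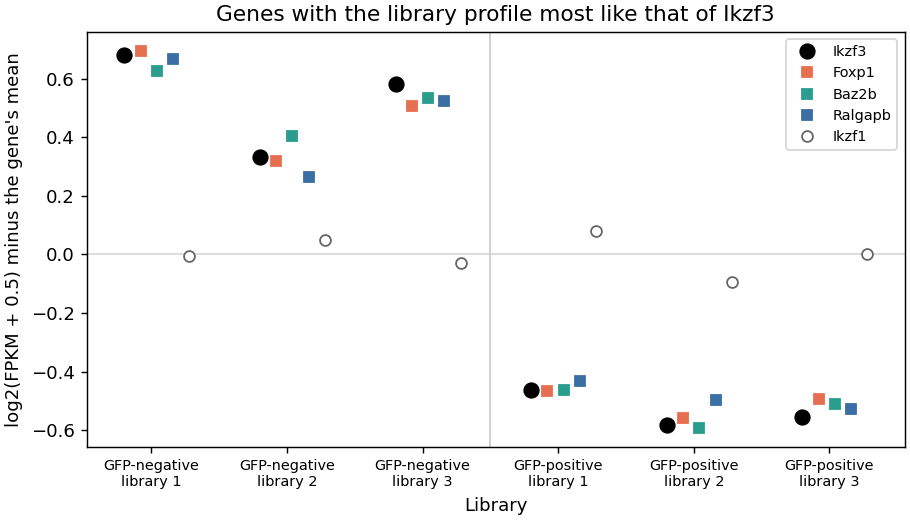
log2(FPKM + 0.5) minus the gene's own mean over the 6 libraries, for Ikzf3 (black), the 3 genes with the most similar profile (squares) and Ikzf1 (open circles), by library. The squares follow Ikzf3 within each library, including its lower value in GFP-negative library 2, while Ikzf1 stays near 0.

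Genes of the complexes through which Ikaros proteins act on chromatin were counted in the same fit. Of 13 NuRD genes, 7 rose, 1 fell and 5 did not pass, with a median log2 fold change of 0.41 beside -0.078 over all tested genes (24.4% of which rose and 29.8% fell). Chd4, the ATPase that joins Ikaros in thymocytes, was at 100.04 ± 11.0 FPKM without GFP and 94.1 ± 5.31 FPKM with it (SD, n = 3 each), or -0.083 on the log2 scale (standard error 0.12, limma adjusted p = 0.586). Its paralogue Chd3 rose from 32.1 ± 8.04 to 70.7 ± 8.78 FPKM (log2 fold change 1.15, SE 0.18, limma adjusted p = 0.000854). Rbbp7, a histone-binding subunit, rose from 48.9 ± 12.1 to 113.7 ± 6.87 FPKM (1.24, SE 0.17, adjusted p = 0.000497). Mbd2, the methyl-CpG-binding subunit, fell from 60.5 ± 4.01 to 38.5 ± 2.85 FPKM (-0.64, SE 0.11, adjusted p = 0.00142), and Mta2, a scaffold subunit, stood at 84.7 ± 4.06 and 82.8 ± 5.26 FPKM (adjusted p = 0.807). Without GFP-positive library 3 the number of NuRD genes that rose was 4.

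Other chromatin partners went both ways. Of the 4 tested corepressors of the second list, 1 rose and 1 fell, and the median was 0.23 on the log2 scale. Without GFP-negative library 3 it was 2 that rose, without GFP-negative library 2 or GFP-positive library 1 or 2 it was 0 that fell, and 2 and 3 rose with quantile and upper quartile scaling. Rbbp8, which encodes CtIP and binds CtBP, rose from 8.10 ± 1.03 to 13.1 ± 0.194 FPKM (SD, n = 3 each), or 0.67 on the log2 scale (limma adjusted p = 0.00283). Sin3b, a scaffold of histone deacetylases, fell (-0.35, adjusted p = 0.0225), a call lost in 4 of 17 alternatives (adjusted p up to 0.0802), and Ctbp1 had a log2 fold change of 0.19 (adjusted p = 0.172). In the SWI/SNF list, 2 of 6 genes rose and 2 fell, with a median of 0.053. The number that fell was 1 without GFP-negative library 1 or 3 or GFP-positive library 1 or 2. It was also 1 with no minimum level, with upper quartile scaling and with the other variance model. The core subunits Smarcc1 and Smarcb1 rose (0.93 and 0.80), the subunit Arid1a fell (-0.45, lost in 2 of 17 alternatives with adjusted p up to 0.0536), and the ATPase Smarca4 fell just past the threshold (-0.34, adjusted p = 0.0495, lost in 9 of 17 alternatives with adjusted p up to 0.229).

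Enzymes that act on Ikaros protein were also counted, against the same 24.4% higher and 29.8% lower of all tested genes. Casein kinase 2 phosphorylates Ikaros and protein phosphatase 1 reverses this. Of their 6 genes 3 rose and 0 fell, with a median log2 fold change of 0.27: Csnk2b, the regulatory subunit (0.53, limma adjusted p = 0.00898), Ppp1ca (0.49, adjusted p = 0.00994) and Ppp1cc (0.36, adjusted p = 0.0429). The call of Ppp1cc was lost in 10 of 17 alternatives (adjusted p up to 0.162) and those of Csnk2b and Ppp1ca in 1 each (adjusted p up to 0.0968 and 0.0502). Without GFP-positive library 2 it was 1 gene of this list that rose. The cereblon ubiquitin ligase, known in human cells for the drug-induced destruction of Ikaros and Aiolos, had 1 of 5 genes higher and 1 lower, with a median of 0.34. The number higher was 2 without GFP-negative library 3, at a minimum mean of 5 FPKM and with a replicate block, and 3 with either other scaling. Ddb1, its adaptor, rose from 66.1 ± 5.72 to 95.7 ± 9.28 FPKM (SD, n = 3 each), or 0.53 on the log2 scale (limma adjusted p = 0.00593). Crbn, cereblon itself, fell from 17.6 ± 1.05 to 11.7 ± 1.03 FPKM (-0.57, adjusted p = 0.0038), and Rbx1, the RING subunit, stood at 18.3 ± 2.83 and 23.1 ± 2.41 FPKM (adjusted p = 0.0777), past the threshold in 3 of 17 alternatives (adjusted p down to 0.0236).

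Of 17 genes known from lymphocyte studies to be bound or regulated by Ikaros factors, 14 were tested. In that list 3 rose, 7 fell and 4 did not pass, with a median log2 fold change of -0.30, where 24.4% of all tested genes rose and 29.8% fell. Cd4, Cd8a and Cd8b1, among those that fell, are also in the double-positive marker list. Ptcra, Hes1, Dtx1 and Il2ra are in other marker lists. Hes1, a Notch target that Ikaros represses, rose from 0.515 ± 0.201 to 3.18 ± 1.01 FPKM (SD, n = 3 each), or 1.84 on the log2 scale (limma adjusted p = 0.00107), and Myc, the growth regulator, had a log2 fold change of 1.91. Hes1 was at most 0.735 FPKM in a GFP-negative library and reached the level tested through the GFP-positive libraries. The log2 fold change of Hes1 was 2.41 at a pseudocount of 0.1 and 1.44 at a pseudocount of 1. Ptcra, the pre-T cell receptor alpha chain, rose from 14.9 ± 2.11 to 20.3 ± 1.43 FPKM (0.45, adjusted p = 0.0215), while Notch3 (0.37, adjusted p = 0.058), Dtx1 (0.23, adjusted p = 0.522) and Il2ra (-0.10, adjusted p = 0.743) did not pass. Those that fell included Cd4 (-4.83), Rag1, the recombinase (-3.17), and Dntt, terminal transferase (-0.50, adjusted p = 0.0141, lost in 2 of 17 alternatives with adjusted p up to 0.0616). Il2, Igll1 and Vpreb1 were below the level tested. Ptcra, Notch3, Dtx1 and Il2ra were chosen for naming after their values were seen.

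**Figure D5:**
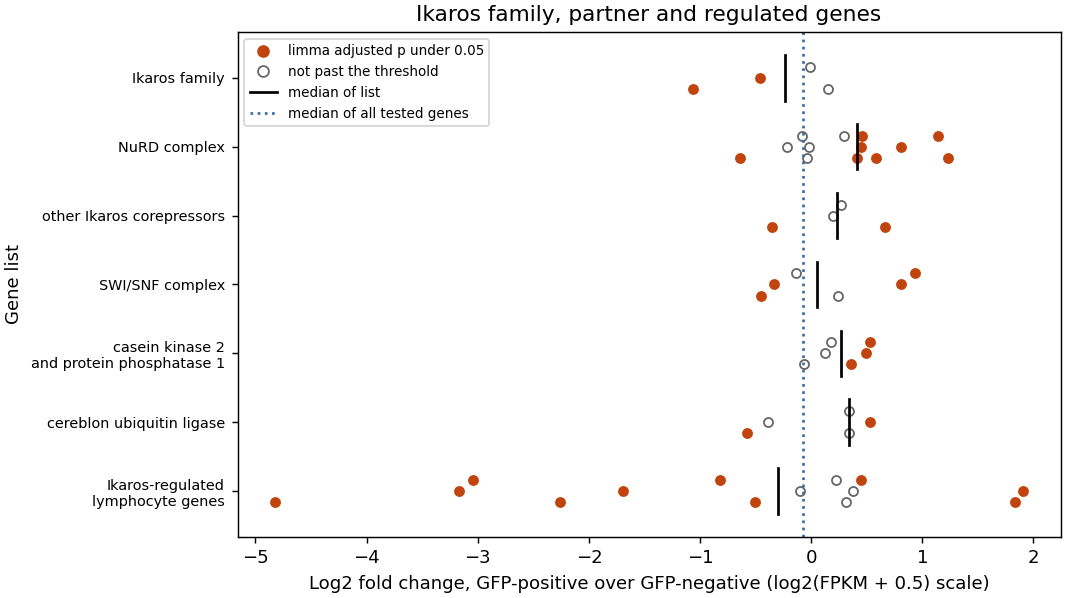
Log2 fold change of GFP-positive over GFP-negative cells on the log2(FPKM + 0.5) scale for each tested gene of the Ikaros family and of the partner and regulated gene lists. Filled points passed an adjusted p of 0.05 (limma), open points did not, black bars are list medians and the dotted line is the median of all tested genes (-0.078). The NuRD median (0.41) lies to the right of that line and the median of the regulated genes (-0.30) to its left.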

How the data were processed

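TopHat2, Cuffdiff and mouse build mm10 are named, with no versions, in the submitters' processing notes. The authors deposited FPKM values of each library and each group, from separate runs on 6 and on 4 libraries. Per the file headers, these tables also give every gene's p-value and q-value. A further table, on Gata3 alone, was not used. Settings, annotation release and strand handling were not given in the sources used here. Genes of status HIDATA, 24 in number, were left out.

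The 3 GFP-positive libraries were set against the 3 GFP-negative ones in limma 3.58.1 under R 4.3.3 (lmFit; eBayes, trend and robust). The values were log2(FPKM + 0.5), a scale that understates changes of low genes, and a gene entered if its mean reached 1 FPKM. The Benjamini-Hochberg adjustment ran over all 11465 such genes, at a threshold of 0.05. Count models were not used because FPKM values do not hold counts. Shares and ratios had two-sided exact permutation tests. Named from each list were at most 2 called genes in either direction, by size of change, and the 2 most abundant. For each tested member the 3 genes nearest in profile were named. The members and lists were chosen with earlier results of these data known. Positions, overlaps and coding sequences came from GENCODE M21. The markers Trdc and Hbb-b1 were not analysed here. Alternatives were other pseudocounts, minimum levels and scalings, the variance model, a replicate block, each library left out and fits of 4 libraries. Restricting the fit to genes the authors tested was chosen after seeing the data.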

Additional observations from a re-analysis of the deposited data

How the results depend on the processing

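Ikzf3 kept its direction and its call in each of 17 alternative fits, with log2 fold changes from -1.16 to -0.99 (adjusted p 0.00011 to 0.00268). Ikzf5 kept its direction in all 17 and its call in 10. The call was lost with quantile normalization (-0.38, adjusted p = 0.0671), in the 4-library table (-0.40, adjusted p = 0.0928) and with libraries 2 and 3 of the 6-library table (-0.45, adjusted p = 0.0694). In these 3 fits the number of members that fell was 1 in place of 2. With single libraries left out Ikzf5 ran from -0.58 to -0.39, its call was lost in 4 of those fits, and the number of members that fell was 1 or 2. Ikzf1 had no call in any fit. Its value was 0.051 with upper quartile scaling and -0.050 to 0.036 with single libraries left out, against -0.0089 as reported, and with single libraries left out that of Ikzf2 was -0.077 to 0.29. The cause of these differences was not tested, apart from the fewer libraries of the fits that leave some out.

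Among other named genes, none with a call changed sign. Upper quartile scaling turned Mta2 to 0.026, Pdha1 to 0.053 and Ogfr to 0.00704, and quantile normalization turned Ogfr to 0.019. The 4-library table turned Clint1 to -0.011, and the same libraries in the 6-library table turned Mta2 to 0.038. With single libraries left out, Pdha1 ran from -0.042 to 0.037, Mta2 from -0.075 to 0.019, Usp49 from -0.050 to 0.29 and Tacc2 from -0.083 to 0.18. With quantile normalization the median over all tested genes was 0.057 in place of -0.078, which turned the split from 2797 higher and 3419 lower genes to 3494 and 2846. Relative to that median the value of Ikzf3 (-1.10) was still lower. The replicate block left each member's call as it was (Ikzf3 -1.07, adjusted p = 0.000581; Ikzf5 -0.46, adjusted p = 0.0241; Ikzf1 adjusted p = 0.947; Ikzf2 adjusted p = 0.415), with 2929 higher and 3461 lower genes in all. Whether the replicate numbers pair the libraries cannot be told from 3 libraries per group. Deviations of same-numbered libraries correlated across genes at 0.094, -0.0209 and 0.061. GFP-negative library 1 correlated best with its own number. Neither GFP-negative library 2 nor GFP-negative library 3 did, the latter at 0.065 with GFP-positive library 2. From the other side, GFP-positive libraries 1 and 3 correlated best with their own number and GFP-positive library 2 did not. The depth of the libraries is unknown, which limits what can be said of Ikzf4.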
